A study of Mus musculus with 2 samples.

Results

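The cells described here are those of the E11 mouse aorta-gonads-mesonephros (AGM) region that carried smooth muscle transcripts together with Wnt2. They were chosen from unfiltered single-cell RNA-seq by their own counts: a barcode needed 2000 or more UMIs (unique molecular identifiers, each standing for 1 captured transcript), under 10% of UMIs from mitochondrial genes, Acta2 and Tagln together at 0.2% or more of its UMIs, and 1 or more Wnt2 UMIs. This gave 211 Wnt2+ Acta2-high cells among 16418 cells, 180 of 8253 in the library labelled PDGFRB +/+ (WT) and 31 of 8165 in the library labelled PDGFRB -/- (KO). They are set beside the 754 Acta2-high cells with no Wnt2 UMI (Wnt2- Acta2-high cells, 371 in WT and 383 in KO) and, where it helps, beside the 1517 Wnt2+ cells below the Acta2 and Tagln threshold (Wnt2+ Acta2-low cells, 993 in WT and 524 in KO).

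PDGFRβ is the receptor tyrosine kinase through which pericytes and vascular smooth muscle cells are recruited to vessels, and the study asked how its loss alters the AGM, where the first hematopoietic stem cells arise. Whole AGMs of E11 embryos of each genotype, from a germline knockout line on the C57BL/6J background whose heterozygotes were bred together, were dissociated with collagenase type I and loaded without sorting, 1 library per genotype. Each library held its own embryos, in a number not given in the sources used here, so no test between genotypes was possible. All intervals below are 95% intervals that cover counting error only.

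Wnt2 is a secreted ligand of the canonical Wnt pathway, which binds Frizzled receptors with LRP coreceptors and acts through β-catenin. In the embryo it is known from the allantois and placental vessels, the lung mesenchyme and the sinus venosus. Smooth muscle cells are marked by actins and actin-binding proteins (Acta2, Tagln, Actg2, Cnn1, Myh11), many of them under serum response factor, which binds the CArG box, and some under TEAD factors, the DNA-binding partners of YAP, which bind the MCAT motif.

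The promoters below are shown for 3 smooth muscle or YAP-response genes that the cells carried. Sequences are RefSeq's (GRCm38.p6), the 250 bases before the transcript start, in the direction of transcription. Ankrd1, a nuclear cofactor induced by stretch and by YAP, lies on the minus strand (chr19:36119845-36120094), and capitals mark the MCAT letters, searched as CATTCC or GGAATG, which stand at -210 and -123 from the start. Acta2, vascular smooth muscle actin, lies on the minus strand too (chr19:34255374-34255623), with the same letters in capitals at -146. Myl9, a regulatory myosin light chain, lies on the plus strand (chr2:156775214-156775463), and capitals mark a CArG box at -161, searched as CC, 6 letters that are each A or T, and GG, with no mismatch allowed.
Ankrd1: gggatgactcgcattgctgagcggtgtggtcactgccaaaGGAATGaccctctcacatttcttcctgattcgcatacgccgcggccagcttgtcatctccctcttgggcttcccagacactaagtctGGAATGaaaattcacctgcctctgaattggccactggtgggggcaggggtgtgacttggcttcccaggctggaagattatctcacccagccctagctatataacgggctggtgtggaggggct
Acta2: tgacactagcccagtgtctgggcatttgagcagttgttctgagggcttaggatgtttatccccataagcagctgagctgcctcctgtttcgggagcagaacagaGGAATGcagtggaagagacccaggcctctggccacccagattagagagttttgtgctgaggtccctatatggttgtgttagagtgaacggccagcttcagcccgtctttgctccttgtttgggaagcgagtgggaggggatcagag
Myl9: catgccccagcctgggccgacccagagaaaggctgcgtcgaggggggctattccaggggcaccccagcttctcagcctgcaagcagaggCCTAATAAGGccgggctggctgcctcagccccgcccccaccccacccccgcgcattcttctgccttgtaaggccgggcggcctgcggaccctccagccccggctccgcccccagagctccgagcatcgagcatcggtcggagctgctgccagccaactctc
Of 32851 such promoters, 12.6% held the MCAT letters on either strand, 1.02% held them 2 or more times and 1.47% held a CArG box. Of 20 genes looked up 13 had an entry. The MCAT letters stood in 4 of them (Ankrd1, Acta2, Mylk and Vcl) and a CArG box in 2 (Myl9 and Vcl). Neither stood in this window of Wnt2, Tbx4, Hoxa13, Hoxa10, Hoxd11, Postn, Krt8 or Cnn1. A match describes the letters and is not a shown binding site, and the exact search passes over variant boxes, such as those known from the Acta2 promoter.

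The targeted gene was low in the library labelled KO. Levels are given as CPM, the UMIs of a gene per 1000000 UMIs of the summed cells. Pdgfrb was at 83.4 CPM in the WT Wnt2+ Acta2-high cells and at 15.1 CPM in those of KO, a log2 ratio of -2.47 (-3.26 to -1.77). It had a UMI in 115 of the 180 WT cells and in 11 of the 31 KO cells. The Wnt2- Acta2-high cells gave 118.7 and 12.6 CPM, so the KO level was low in both. Which part of the gene the line lacks is not given in the sources used here, so counts from the 3′ end check the label only by the level of the transcript. Cspg4, which encodes the pericyte proteoglycan NG2, was at 14.9 CPM against 53.6 CPM in the Wnt2- cells of WT and at 26.6 against 39.1 CPM in KO.

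The libraries differed in more than genotype. Xist, the noncoding RNA of the inactive X chromosome, was at 623.8 CPM in the WT cells of interest and at 0 in those of KO, whereas the Y-linked Ddx3y and Eif2s3y were at 0 in WT and at 70.9 and 55.0 CPM in KO, and the Wnt2- Acta2-high cells did the same. Genotype, library and embryo sex therefore cannot be told apart in any WT to KO difference. Globin UMIs also differed, since the erythroid genes summed to 4000 CPM in WT and 105 CPM in KO, with 54.0% of the WT UMIs of Hbb-y, the most abundant, in 1 cell, and to 5715 and 1575 CPM in the Wnt2- Acta2-high cells. The WT cells had a median of 19624.5 UMIs (2071 to 134092) and the KO cells a median of 31079 (8031 to 133760), against 14126 and 15375 in the Wnt2- Acta2-high cells. The libraries shared 20 cell barcodes, none of them among the 211 cells.

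Wnt2 was found in a larger share of the Acta2-high cells of WT than of KO. It had a UMI in 180 of 551 Acta2-high cells in WT, 32.7% (exact binomial interval 28.8 to 36.8%), and in 31 of 414 in KO, 7.49% (5.14 to 10.5%). These intervals cover the counting of cells in 2 libraries and not the spread between embryos. Of the WT cells 30 had only 1 Wnt2 UMI, and of the KO cells 12 did. With the same Acta2-high cells thinned to 2000 UMIs each, a Wnt2 UMI remained in 15.6% and 2.90%. In globin-rich cells, which should lack Wnt2, it was found in 2.57% of 740 cells in WT (median 16743.5 UMIs) and 0.935% of 214 in KO (median 19517 UMIs), so both shares lay above that background. Acta2-high cells themselves made up 6.68% and 5.07% of all cells, and Wnt2+ cells of any kind 14.2% and 6.80%. The Wnt2 level within the Wnt2+ Acta2-high cells, which the choice bounds from below, was 265.5 CPM in WT and 125 CPM in KO, a direction that turned (log2 ratio of KO over WT 0.087) with cells thinned to 2000 UMIs before the thresholds, from 7 KO cells.

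**Figure D1:**
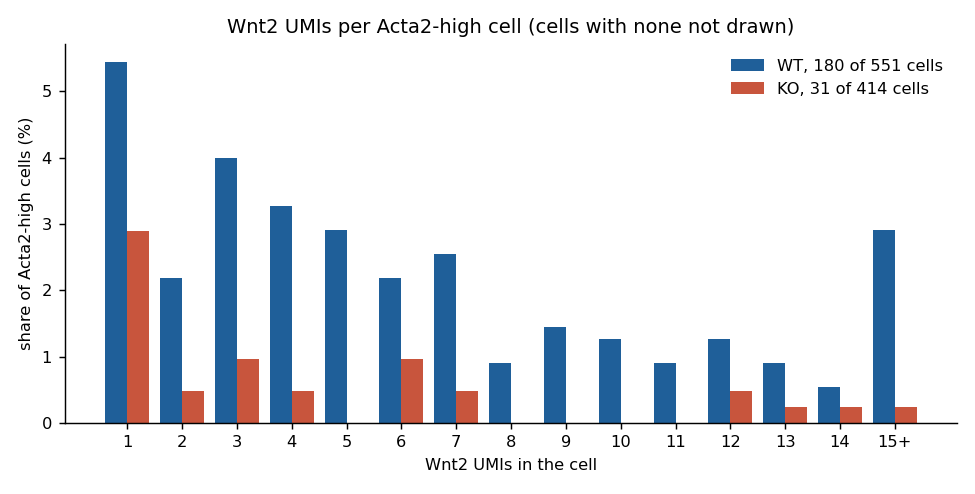
Share of Acta2-high cells (in %, vertical axis) by the number of Wnt2 UMIs in the cell (horizontal axis, 15 or more pooled), for WT (blue) and KO (red), with cells at 0 not drawn. The bars sum to 32.7% in WT and 7.49% in KO, and the last bar holds 2.90% of WT and 0.242% of KO cells.

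Skeletal muscle cells, which also carry Acta2 and Tagln at this stage, took different shares of the groups. Cells with Acta1, Mylpf, Myl1, Tnnc1 and Tnnc2 together at 0.1% or more of UMIs (striated cells) were 6 of the 180 WT cells (3.33%) and none of the 31 KO cells, but 44 (11.9%) and 107 (27.9%) of the Wnt2- Acta2-high cells. Without striated cells the share of Acta2-high cells with Wnt2 was 34.7% in WT and 10.1% in KO, in the same order as before.

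The markers that gave the cells their working name, a Wnt2 and Actg2 positive smooth muscle-like mesenchyme, were present but unevenly spread. Actg2, the enteric and visceral smooth muscle actin, was at 1277 CPM in WT and at 949 CPM in KO, against 611 and 493 CPM in the Wnt2- Acta2-high cells, log2 ratios of 1.06 (1.00 to 1.12) and 0.94 (0.84 to 1.04). With striated cells left out of both sides, Actg2 had log2 ratios of 0.88 (0.82 to 0.94) in WT and 0.50 (0.40 to 0.60) in KO, under 2-fold in both. Over single cells its median was 478 CPM in WT (interquartile range 63.3 to 1844) and 277 CPM in KO (16.7 to 1313). Ankrd1 was at 140 and 162 CPM against 44.2 and 27.9 CPM, but 43 of the 180 WT cells and 10 of the 31 KO cells had any, and 1 cell gave 57.9% of its KO UMIs. Postn, the matrix protein periostin, was at 447 and 190 CPM against 114 and 47.9 CPM, a log2 ratio of 1.97 and 1.99. Actg2 was carried mostly by the cells with Acta2 and Tagln at 1% or more of UMIs, which held 4520 of its 5926 UMIs in WT (55 cells) and 877 of 1070 in KO (10 cells). Acta2 and Tagln were used to choose all Acta2-high cells, and their levels lay close between them in WT, at 6191 against 5859 CPM and 2944 against 2757 CPM. In KO they were at 5382 against 4422 CPM and 3307 against 1778 CPM.

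The comparison with Wnt2- Acta2-high cells covered 9567 genes with 50 or more UMIs over both populations in each library. Since the cells were sorted into these groups by their own counts, and 1 library stood for each genotype, the ratios are descriptions and none was tested. The log2 ratio was 1 or more in both libraries for 147 genes (1.54%) and -1 or less in both for 274 genes (2.86%). Without striated cells the lower count was 123. For 20 genes (0.209%) it was 2-fold or more in opposite directions in WT and KO, with both intervals past 0. The median over all genes was 0.03 in WT and 0.14 in KO, and TMM scaling moved the KO median to -0.06. With every cell thinned to 2000 UMIs, 20 genes were 2-fold higher in both libraries and 19 lower, of 2454 measured. Genes from 20 UMIs gave 237 higher and 401 lower, and genes from 200 UMIs gave 50 and 99.

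Of the 22 genes of the smooth muscle contractile list none was 2-fold higher in both libraries, and 1 was 2-fold lower. Acta2 and Tagln, by which both groups of cells were chosen, are counted in this list and in its medians. Over all genes 1.54% were higher in both and 2.86% lower, so counts this small say little about the list. Its medians were 0.05 in WT and 0.40 in KO. Calponin 1 (Cnn1) was at 180 against 188 CPM in WT and 247 against 146 CPM in KO. Smooth muscle myosin heavy chain (Myh11) was at 72.8 against 146 CPM in WT and 122 against 125 CPM in KO, a log2 ratio of -1.01 in the first and -0.03 in the second. Its coactivator Myocd, which drives smooth muscle genes with Srf, was at 19.4 against 18.4 CPM in WT and at 22.2 against 31.1 CPM in KO. The gene that was lower in both was Mef2c, a MADS-box factor of muscle, at 72.2 against 470 CPM in WT and 57.6 against 554 CPM in KO. The Wnt2- Acta2-high cells included striated cells (11.9% in WT, 27.9% in KO), whose part in the Mef2c levels is not separated here. Among 16 genes of the YAP and SRF response Ankrd1 alone was 2-fold higher in both, beside the same 1.54% of all genes. Cyr61 (Ccn1) and Ctgf (Ccn2), its usual companions, were at 81.9 against 122 CPM and 44.2 against 84.8 CPM in WT, and at 97.5 against 63.2 CPM and 57.6 against 65.0 CPM in KO. The list medians were -0.19 in WT and 0.46 in KO.

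Elastin message was scarce beside the Wnt2- Acta2-high cells. Eln, the core of elastic lamellae in the arterial wall, was at 30.4 against 198 CPM in WT and 37.2 against 249 CPM in KO, log2 ratios of -2.71 (-2.97 to -2.46) and -2.74 (-3.22 to -2.30). It was the 1 member of the 18 measured elastic fiber genes that was 2-fold lower in both libraries, while 3 were 2-fold higher: Fbn2 (fibrillin 2, 580 against 227 CPM in WT, 479 against 204 CPM in KO), Fbln1 (fibulin 1) and Lox, the lysyl oxidase that crosslinks collagen and elastin. Several collagen genes were higher. Of 21 collagen and fibronectin genes 6 were 2-fold higher in both libraries (Col1a1, Col1a2, Col3a1, Col5a1, Col18a1 and Postn) and none 2-fold lower. The elastic fiber and collagen counts are to be read beside the 1.54% of all genes 2-fold higher in both and the 2.86% lower. Col1a1 was at 2427 against 685 CPM in WT and 1553 against 422 CPM in KO. Col3a1 was at 2225 against 784 CPM and 1439 against 477 CPM.

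Pericyte genes were mixed, with 2 of 13 measured genes 2-fold lower in both libraries, beside 2.86% of all genes. Kcnj8 and Abcc9, which together form the vascular ATP-sensitive potassium channel, were 2-fold lower in both libraries, the first at 3.66 against 23.7 CPM in WT and 7.09 against 20.5 CPM in KO. None of the 13 was 2-fold higher in both, beside 1.54% of all genes. The list medians were -0.77 in WT and 0.04 in KO. All 16 genes of the list summed to 657 against 1061 CPM in WT, but to 738 against 627 CPM in KO. Rgs5, a regulator of G-protein signalling, was at 28.0 against 179 CPM in WT and 76.3 against 109.5 CPM in KO.

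The genes highest over the Wnt2- Acta2-high cells were led by regional transcription factors. Ranked by the smaller of the 2 ratios, the first 15 were Tbx4, Pitx1, Pcsk1n, Hoxa13, Mbnl3, Sparcl1, Rhox5, Phlda2, Prss35, Krt8, Pid1, 2610528A11Rik, Pcgf5, Nup62cl and Myrf. Tbx4, the T-box factor of hindlimb, lung and allantois mesenchyme, was at 76.7 against 3.67 CPM in WT and 47.0 against 1.03 CPM in KO, log2 ratios of 4.38 (3.79 to 5.05) and 5.52 (4.44 to 6.80). Pitx1, a homeobox factor of hindlimb and caudal mesoderm, was at 254 against 18.7 CPM and 131 against 2.05 CPM. Hoxa13, the most posterior member of the HoxA cluster, was at 40.3 against 3.37 CPM and 47.9 against 2.05 CPM, log2 ratios of 3.58 (2.94 to 4.29) and 4.55 (3.72 to 5.45). The 3 factors had a UMI in 107, 153 and 77 of the 180 WT cells and in 16, 19 and 13 of the 31 KO cells.

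These factors were not peculiar to the Acta2-high cells. In the Wnt2+ Acta2-low cells Tbx4 was at 38.6 CPM in WT and at 28.8 CPM in KO, Pitx1 at 191 and 104 CPM, and Hoxa13 at 25.9 and 30.3 CPM. Counted per cell, 87.8% of the WT cells of interest had a UMI of 1 or more of Tbx4, Pitx1, Hoxa13 and Hand1, against 19.7% of the Wnt2- Acta2-high cells and 82.0% of the Wnt2+ Acta2-low cells. In KO the shares were 67.7%, 14.6% and 55.0%. All other WT cells gave 23.9%. At 2000 UMIs a cell, the WT shares of the first pair were 56.1% and 7.82%, and those of KO 32.3% and 2.35%. In globin-rich WT cells, which should lack them, Tbx4 had a UMI in 1.08%, Pitx1 in 4.05% and Hoxa13 in 2.30% of cells.

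Of 35 measured regional mesenchyme factors 7 were 2-fold higher in both libraries and 3 were 2-fold lower, beside 1.54% and 2.86% of all genes. Besides Tbx4 and Pitx1 the higher ones included Tbx3, Hand2 (107 against 23.7 CPM in WT, 55.9 against 23.3 CPM in KO), Gata5 and Gata6 (237 against 73.9 CPM, 196 against 58.7 CPM). Tbx1, Tcf21 and Snai1 were the lower members. Gata6 and Hand2 are known from lateral plate mesoderm, and Tcf21 from the mesenchyme of kidney, gonad and epicardium. Tbx5, the forelimb and heart factor, was at 23.9 against 1.84 CPM in WT and 23.1 against 0.769 CPM in KO, but its UMIs were below 50 in KO and it is outside the counts.

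Anterior and posterior Hox genes differed in direction. Among the 25 measured, 15 of the 16 of paralogue groups 2 to 8 had ratios below 0 in both libraries, and all 5 of groups 10 to 13 had ratios above 0 in both, beside 25.1% of all genes below 0 and 40.6% above 0 in both. The 4 genes of group 9 lay between, with log2 ratios of 0.16 in WT and 0.61 in KO for Hoxa9, -0.81 and -0.43 for Hoxb9, -0.03 and 0.22 for Hoxc9, and -0.33 and -1.55 for Hoxd9. Past 2-fold in both were Hoxa10 (58.8 against 24.8 CPM in WT, 50.5 against 19.4 CPM in KO), Hoxd11 (67.7 against 14.5 CPM, 82.5 against 7.43 CPM) and Hoxa13 on the higher side. Hoxa4, Hoxb4, Hoxb6, Hoxb7 and Hoxb8 were on the lower side, with Hoxb4 at 8.19 against 39.9 CPM in WT and 21.3 against 43.5 CPM in KO. Posterior Hox genes mark the caudal end of the trunk and the tissues beyond it. The umbilical and allantoic list, which overlaps these lists, had 5 of 8 measured genes 2-fold higher in both (Tbx4, Hoxa13, Hoxa10, Pitx1 and Postn) and none lower. Of 5 measured lung and gut mesenchyme genes 2 were 2-fold higher, Tbx4 and Wnt2, the latter used to choose the cells. Of 4 measured cardiac outflow and pharyngeal genes Hand2 was 2-fold higher, and Tbx1 and Mef2c were 2-fold lower. These lists share genes, and the origin of the cells was not tested. Over all genes 1.54% were 2-fold higher in both and 2.86% lower.

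**Figure D2:**
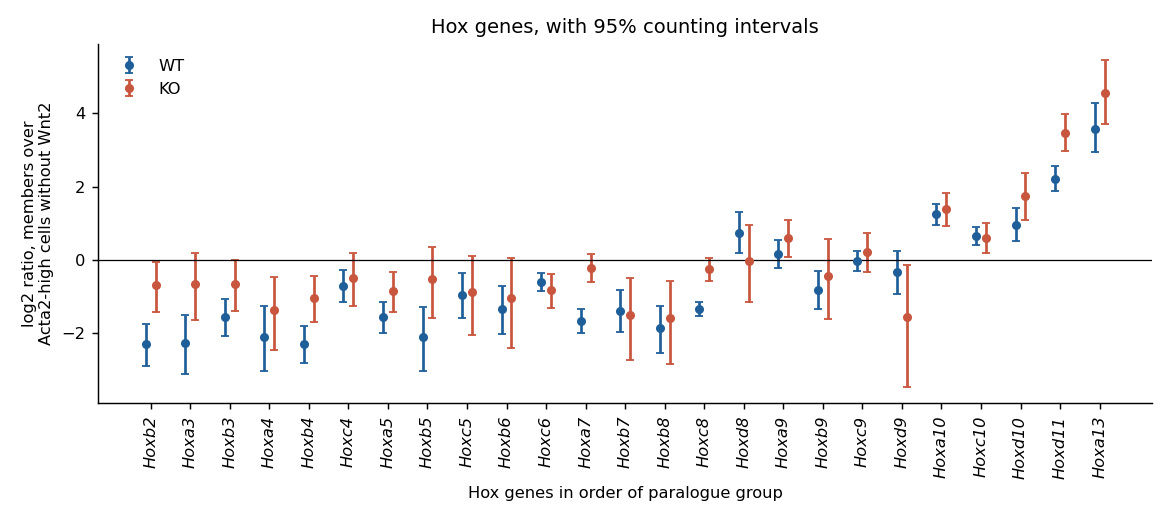
Log2 ratio of Wnt2+ Acta2-high (members) over Wnt2- Acta2-high cells (vertical axis) for the 25 measured Hox genes in order of paralogue group, with WT in blue, KO in red and bars for 95% counting intervals. Groups 2 to 8 lie mostly below 0, group 9 on both sides and groups 10 to 13 above 0.

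Other genes among the first 15 have varied roles. Sparcl1, a matrix glycoprotein of the SPARC family, was at 251 against 21.9 CPM in WT and 231 against 19.5 CPM in KO. Phlda2, an imprinted gene that limits placental growth, was at 79.9 against 5.05 CPM and 51.4 against 5.51 CPM. Rhox5, an X-linked homeobox gene, was at 114 against 12.1 CPM and 72.7 against 1.67 CPM, with 54.9% of its KO UMIs in 1 cell. Others of the 15 were the convertase inhibitor Pcsk1n, the splicing factor Mbnl3, the polycomb ring finger protein Pcgf5 and the membrane-bound transcription factor Myrf. Pcgf5 and Nup62cl (a nucleoporin relative) were at 69.6 and 65.7 CPM in WT but at 9.89 and 5.01 CPM in the Wnt2+ Acta2-low cells, unlike Myrf, at 55.0 and 53.3 CPM. By the share of cells with a UMI after thinning, the most different genes beside Wnt2 were Ptn, Itm2a, Postn, Col1a1 and Plagl1. Ptn, the growth factor pleiotrophin, was at 2218 against 724 CPM in WT and 2943 against 610 CPM in KO.

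Krt8 and Krt18, the keratin pair of simple epithelia, were also higher, at 219 against 9.95 CPM and 76.5 against 10.9 CPM in WT and at 46.1 against 5.90 CPM and 28.4 against 6.28 CPM in KO. Krt8 had a UMI in 135 of 180 WT cells and 14 of 31 KO cells. The epithelial list of 11 genes summed to 331 CPM in WT and 82.5 CPM in KO, against 31.2 and 18.5 CPM, with Krt8 the most abundant. Of the 11 genes 6 had a UMI in WT and 4 in KO, and Krt19 was at 34.3 CPM in WT. Cdh1 (E-cadherin), Cldn6, Pax2, Pax8 and Nkx2-1 had no UMI in WT, and these and Epcam and Sox2 had none in KO. Of these, Cdh1, Cldn6 and Nkx2-1 had no UMI in the Wnt2- Acta2-high cells of either library. In the Wnt2+ Acta2-low cells Krt8 was at 160 CPM in WT and at 38.7 CPM in KO.

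**Figure D3:**
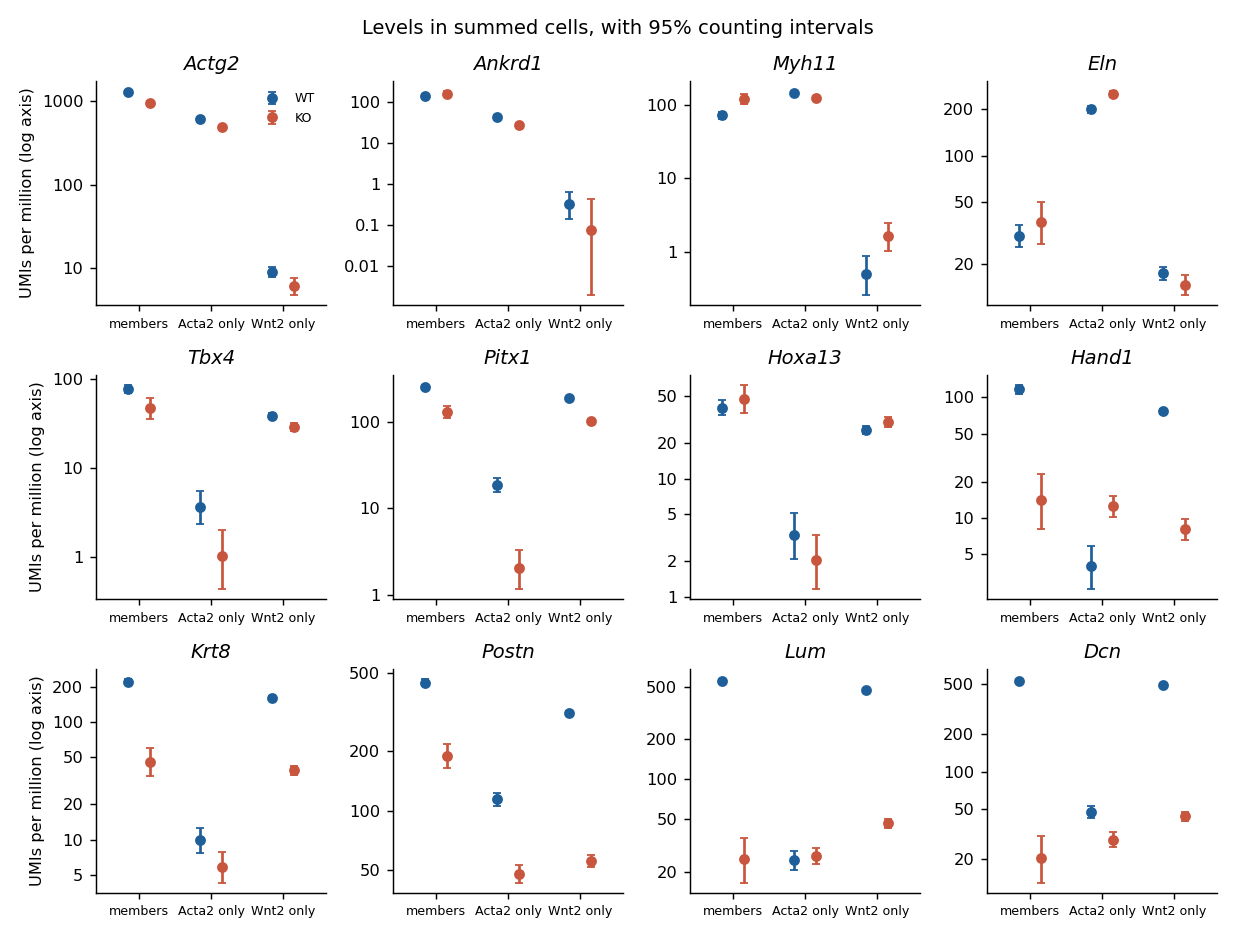
CPM on a log axis of 12 genes in Wnt2+ Acta2-high cells (members), Wnt2- Acta2-high cells (Acta2 only) and Wnt2+ Acta2-low cells (Wnt2 only), in WT (blue) and KO (red), with 95% counting intervals. Actg2, Ankrd1 and Myh11 fall in the Wnt2+ Acta2-low cells, where Tbx4, Pitx1 and Hoxa13 stay far above the Wnt2- Acta2-high cells.

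Other cell types were checked by their marker lists. The macrophage list of 10 genes summed to 4.31 CPM in WT and 1.77 CPM in KO, with Ptprc, Fcgr1 and Adgre1 at 0 in both libraries. The endothelial list of 13 genes summed to 103 and 31.9 CPM, against 44.8 and 41.7 CPM in the Wnt2- Acta2-high cells. Its most abundant gene in WT was Kdr, a VEGF receptor that early lateral mesoderm also carries, at 62.1 CPM in WT and at 5.32 CPM in KO, with Tie1, Cldn5 and Sox17 at 0 in both. In KO the most abundant was Egfl7, at 22.2 CPM, and Cdh5, Tek, Esam, Vwf and Sox18 were at 0 as well. The coelomic epithelium list of 9 genes summed to 103 CPM in WT and 70.0 CPM in KO, against 82.2 and 62.3 CPM, with Krt19 the most abundant in WT (34.3 CPM), Wt1 in KO (33.7 CPM) and Msln at 0 in both. The neural crest list of 8 genes summed to 22.4 and 52.3 CPM, against 38.4 and 50.9 CPM, with Sox10 and Foxd3 at 0 in KO. The sclerotome list of 8 genes summed to 33.0 and 93.99 CPM, against 121 and 156 CPM, led by Sox9 in WT and Col2a1 in KO, with Nkx3-2 and Matn1 at 0 in both and Acan in KO.

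Skeletal muscle genes led the lower side of the comparison. The 15 lowest were Mustn1, Sln, Prr32, Gm45159, 2310002L09Rik, Myh7, Acta1, Tnnc1, Ldb3, Trim55, Csrp3, Itgb1bp2, Tnnc2, Ttn and Trdn. Myh7, Acta1, Tnnc1, Tnnc2 and Ttn among them encode parts of the sarcomere, and Sln and Trdn proteins of its calcium stores. The skeletal muscle list summed to 207 CPM in WT and 109 CPM in KO, against 730 and 1523 CPM, with Des and Myog the respective top genes and Pax7 at 0 in the Wnt2+ cells of both libraries. The striated actin and cardiac list summed to 818 and 479 CPM against 4074 and 7407 CPM, with Actc1 the most abundant and Nppa at 0 in every group, and Nkx2-5 at 0 in the Wnt2+ cells of both. With striated cells left out of both sides, 123 of 8952 genes (1.37%) were 2-fold lower in both libraries in place of 274, and the lowest 15 included Map3k7cl, Myod1, Lrrn1, Vgll2, Myog, Eln, Grem1, Tulp1, Palmd, Cd200, Hspb2, Cnnm2, Gm13889 and Cdh15, so that muscle regulators remained and the elastin gene came forward.

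In the Wnt pathway lists 3 genes besides Wnt2 were past 2-fold in both libraries, to be read beside the 1.54% of all genes that were higher and the 2.86% that were lower. Wnt11, a ligand of the noncanonical pathway, was at 25.4 against 10.3 CPM in WT and 23.9 against 6.41 CPM in KO, and was the 1 other of 5 measured ligands past 2-fold in both. None of 13 Frizzled receptors and coreceptors was, with list medians of 0.16 and 0.38. Sfrp1, a secreted Wnt antagonist, was at 536 against 128 CPM and 497 against 146 CPM, the 1 of 9 modulators that was 2-fold higher. Lef1, a nuclear partner of β-catenin, was the 1 of 10 nuclear factors and targets that was 2-fold lower, at 3.45 against 7.80 CPM in WT and 3.55 against 8.97 CPM in KO.

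In the other signalling lists 0 to 4 genes were past 2-fold in both libraries, to be read beside the same shares of all genes, and a single gene in lists this short says little about a list. Of 32 BMP and TGF-β genes Tgfb1 was 2-fold higher in both libraries (45.9 against 19.1 CPM in WT, 50.5 against 8.20 CPM in KO), and the receptor Bmpr1b, the BMP antagonist Grem1 and the activin subunit Inhba were 2-fold lower. Of 11 retinoic acid genes the receptor Rarb was 2-fold higher (86.0 against 22.5 CPM, 98.4 against 11.2 CPM). Of 9 Notch genes the feedback gene Nrarp was 2-fold lower (3.66 against 33.2 CPM, 7.09 against 18.97 CPM). None of 8 Hedgehog genes passed in both. Of 5 PDGF genes the ligand Pdgfc was 2-fold lower, and of 11 IGF genes Igfbp7 was. Of 13 hematopoietic support genes Ptn and Slit3 were 2-fold higher in both and none 2-fold lower.

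The cell cycle inhibitors Cdkn1a and Cdkn1c were the 2 of 18 proliferation genes past 2-fold in both, each lower, with Cdkn1c at 1005 against 2265 CPM in WT and 1843 against 3966 CPM in KO. This count and that of the dissociation genes below are to be read beside the 2.86% of all genes 2-fold lower in both. Striated cells made up 11.9% (WT) and 27.9% (KO) of the Wnt2- Acta2-high cells, and their part in these levels is not separated here. Mki67, a proliferation antigen, was at 213 against 130 CPM and 278 against 153 CPM. The immediate early gene Fos was at 37.9 against 148 CPM in WT and 64.7 against 139 CPM in KO, and Dusp1 was 2-fold lower as well, of 11 measured genes that respond to dissociation. This list summed to 775 CPM against 1165 CPM in WT and 1095 against 1202 CPM in KO, and its part in the other ratios was not tested.

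The 211 cells ranged widely in smooth muscle content, and other genes varied along that range. Split by the share of Acta2 and Tagln (0.2 to 0.4%, 0.4 to 1% and 1% or more of UMIs), the WT cells numbered 63, 62 and 55, and the KO cells 12, 9 and 10. In WT, Actg2 was at 144, 686 and 3020 CPM in these bins, Ankrd1 at 5.1, 24.995 and 400 CPM and Myh11 at 3.6, 59.1 and 153 CPM. In KO, Actg2 was at 112, 559 and 1737 CPM and Ankrd1 at 0, 39.9 and 341 CPM. All 3 genes of WT were thus highest in the same bin. Krt8 ran the other way in WT, at 352, 210 and 107 CPM, as did Hand1, a lateral plate and extraembryonic mesoderm factor, at 199, 93.2 and 66.8 CPM. So did the small proteoglycans Lum (1385, 255 and 132 CPM) and Dcn (1225, 342 and 109.6 CPM). Tbx4 (54.2, 76.1 and 98.2 CPM) and Hoxa13 (25.3, 41.5 and 52.8 CPM) were higher in the upper bins of WT, while Pitx1 was at 326, 235 and 210 CPM. In KO, Tbx4 was at 17.3, 61.7 and 59.4 CPM, Hoxa13 at 0, 39.9 and 85.2 CPM, and Pitx1, in the opposite order to WT, at 51.8, 142 and 180 CPM, and Krt8 was at 63.3, 54.4 and 29.7 CPM. The split used the cells' own counts, so these are descriptions.

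**Figure D4:**
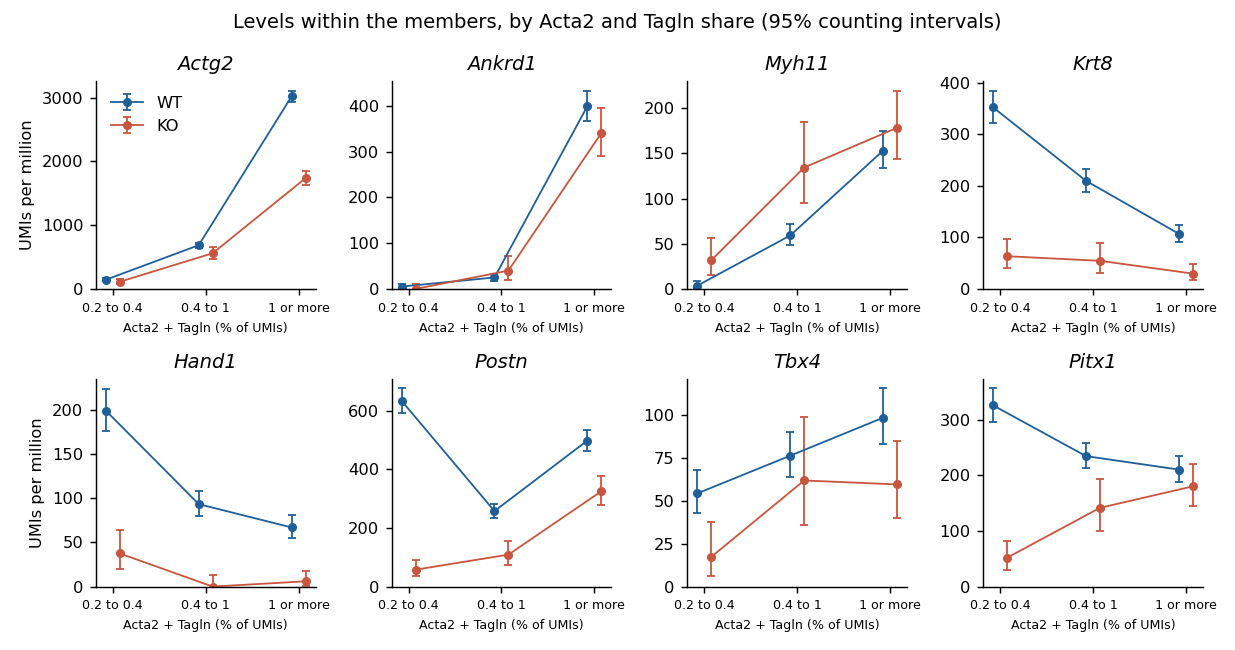
CPM (vertical axes, from 0) of 8 genes in Wnt2+ Acta2-high cells by their Acta2 and Tagln share of UMIs (3 bins), in WT (blue) and KO (red), with 95% counting intervals. Actg2, Ankrd1 and Myh11 were highest at 1% or more, and WT Krt8 and Hand1 were highest at 0.2 to 0.4%.

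Cells on either side of the Acta2 and Tagln threshold differed in several genes in WT. Just outside it, the 51 WT Wnt2+ cells with an Acta2 and Tagln share of 0.15 to 0.2% had Actg2 at 66.6 CPM, Krt8 at 260 CPM, Wnt2 at 239 CPM, Lum at 838 CPM and Postn at 459 CPM. Just inside, the 16 WT cells at 0.2 to 0.25% had 39.3, 505, 217, 2226 and 1082 CPM. In KO these bins held 5 and 7 cells, with Actg2 at 154 and 0 CPM. At the Wnt2 threshold, Acta2-high WT cells with 0, 1, 2 to 3, and 4 or more Wnt2 UMIs (371, 30, 34 and 116 cells) had Pitx1 at 18.7, 121, 160 and 285 CPM. Tbx4 was at 3.7, 32.3, 39.0 and 88.3 CPM, Krt8 at 9.9, 62.0, 111 and 255 CPM, and Eln at 198, 13.5, 22.5 and 33.6 CPM. Cells with a single Wnt2 UMI therefore had little elastin message but lower regional factors than cells with 4 or more. In KO (383, 12, 6 and 13 cells) Pitx1 was at 2.1, 56.0, 72.8 and 185 CPM and Eln at 249, 85.6, 31.2 and 15.8 CPM.

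Between the genotypes, 8673 genes had 50 or more UMIs over the Wnt2+ Acta2-high cells of both libraries. The log2 ratio of KO over WT was 1 or more for 237 genes (2.73%) and -1 or less for 351 (4.05%), with a median of 0.05. In the Wnt2- Acta2-high cells 68 and 131 of the same genes passed, over many more cells. The 31 KO cells summed to 1127788 UMIs against 4640999 in WT, and any 1 of them could carry a large part of a gene's count. Leaving out KO cells with a Pdgfrb UMI (20 left) gave 623 lower, the mean of per-cell CPM gave 397 higher, and genes from 20 UMIs gave 481 higher and 634 lower. Of the 22 smooth muscle genes 1 (Hspb1) was 2-fold lower, with a list median of -0.04 and log2 ratios of -0.43 for Actg2 and 0.21 for Ankrd1, the latter -0.88 without the deepest cell of each library and -0.72 without KO cells with a Pdgfrb UMI. Acta2 (-0.20) and Tagln (0.17), both in that list, were held from below by the choice of the cells in each library. Hoxa13 was at 0.25, Tbx4 at -0.71 and Pitx1 at -0.95.

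The proteoglycans Lum and Dcn showed some of the widest differences between the genotypes. Lum was at 552 CPM in WT and at 24.8 CPM in KO, a log2 ratio of -4.47 (-5.07 to -3.94), and had a UMI in 115 of 180 and 10 of 31 cells. Dcn was at 530 and 20.4 CPM, a log2 ratio of -4.70 (-5.36 to -4.11), with a UMI in 108 and 6 cells. The WT level came mostly from cells low in Acta2 and Tagln, since 1916 of 2561 Lum UMIs lay in those with 0.2 to 0.4%. By the 3 bins of that share, from low to high, Lum was at 1385, 255 and 132 CPM in WT and at 37.4, 50.8 and 1.98 CPM in KO. The Wnt2+ Acta2-low cells also differed, with Lum at 473 and 46.4 CPM and Dcn at 488 and 44.1 CPM. The Wnt2- Acta2-high cells were low in both libraries, with Lum at 24.3 and 26.2 CPM and Dcn at 47.3 and 28.6 CPM.

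Regional factors differed in both directions between the genotypes. Hand1 was at 116 CPM in WT and at 14.2 CPM in KO, a log2 ratio of -3.03 (-3.85 to -2.32), with a UMI in 114 of 180 and 4 of 31 cells, and at 76.6 and 8.06 CPM in the Wnt2+ Acta2-low cells. In KO 1 cell held 68.8% of its UMIs, and the Wnt2- Acta2-high cells were at 3.98 CPM in WT and at 12.6 CPM in KO, so that the KO levels of the Wnt2+ and Wnt2- cells lay close. Msx1, a homeobox target of BMP signalling, was at 40.7 CPM in WT and at 0 in KO, a log2 ratio of at most -3.62 when 3 counts stand for the 0 and the counting interval is allowed for. Tbx20 was at 45.9 and 9.75 CPM. The list counts that follow are to be read beside the 4.05% of all genes 2-fold lower in KO and the 2.73% higher. In all, 7 of 39 regional factors were 2-fold lower (among them Tbx20, Hand1, Twist2, Msx1, Msx2 and Alx4) and 7 were 2-fold higher (among them Tbx18, Foxc1, Foxc2, Foxd1, Osr1 and Meis2). Krt8 was at 219 and 46.1 CPM, and Krt8, Krt18 and Krt19 were the 3 measured epithelial genes, each 2-fold lower. Of 5 measured coelomic epithelium genes 3 were 2-fold lower as well: Krt19 (34.3 and 7.09 CPM), Upk3b (15.3 and 0.887 CPM, with 60.6% of the WT UMIs in 1 cell) and Bnc1 (10.3 and 1.77 CPM). Their part in the keratin difference was not tested. Of 21 collagen and fibronectin genes 6 were 2-fold lower (Col5a2, Col6a3, Col18a1, Postn, Lum and Dcn) and 2 were 2-fold higher, Col12a1 (43.5 and 178 CPM) and Tnc (26.1 and 59.4 CPM).

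The genes that were higher in the KO cells included several that the WT cells of interest held below the Wnt2- Acta2-high cells. Tbx18, a T-box factor of epicardium and mural cell precursors, was at 7.54 CPM in WT and at 45.2 CPM in KO, against 23.9 and 27.7 CPM in the Wnt2- Acta2-high cells. Foxd1, a factor of renal stroma, was at 26.9 and 77.1 CPM against 186 and 132 CPM. Cxcl12, the chemokine that retains hematopoietic stem cells in their niches, was at 118 and 472 CPM against 436 and 288 CPM. Hoxa7 was at 21.8 and 55.0 CPM against 69.0 and 63.6 CPM. It was 1 of 5 Hox genes 2-fold higher in KO of 20 measured (with Hoxa5, Hoxb2, Hoxb3 and Hoxb4), and none was 2-fold lower. Among all genes 2.73% were 2-fold higher in KO and 4.05% lower.

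Some of these levels differed with the number of Wnt2 UMIs within KO. In KO cells with 1, 2 to 3, and 4 or more Wnt2 UMIs, Foxd1 was at 211, 78.0 and 12.7 CPM, where WT had 102, 67.4 and 11.7 CPM. Cxcl12 was at 656, 333 and 426 CPM in KO and at 367, 183 and 80.8 CPM in WT, so it stayed high in the KO cells with most Wnt2. Lum was at 46.1, 62.4 and 3.2 CPM in KO against 253, 346 and 621 CPM in WT, and Hoxa7 at 69.2, 46.8 and 50.6 CPM against 16.2, 34.5 and 19.99 CPM. Since 12 of 31 KO cells but 30 of 180 WT cells had a single Wnt2 UMI, the make-up of the groups differed, and its part in the genotype ratios was not tested.

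Matrix and signalling genes were also among those higher in KO. The list counts here are to be read beside the 2.73% of all genes 2-fold higher in KO and the 4.05% lower. Of 17 elastic fiber genes 5 were 2-fold higher (Fbln5, Efemp1, Ltbp1, Ltbp3 and Ltbp4) and none lower, with Fbln5 at 38.1 CPM in WT and at 153 CPM in KO. Sulf1, which trims heparan sulphate and so tunes Wnt and growth factor signals, was at 36.0 and 182 CPM, a log2 ratio of 2.34 (2.03 to 2.64). Of 9 retinoic acid genes 4 were 2-fold higher, among them Rdh10, Crabp1 and Dhrs3. The Notch targets Hey1 and Hey2, the BMP targets Id1 and Id3, the ligand Wnt4 (64.9 and 143 CPM) and the Wnt agonist Rspo3 were 2-fold higher too. The Wnt antagonist Dkk2 (81.5 and 25.7 CPM), the BMP and activin antagonist Fst, the TGF-β responsive matrix gene Tgfbi and the PDGF ligand Pdgfa (86.6 and 38.1 CPM) were 2-fold lower. By list, 3 of 29 BMP and TGF-β genes were 2-fold higher and 4 lower, and 2 of 8 Notch genes were higher and none lower. Wnt ligands and Wnt modulators (5 and 6 measured) each had 1 higher and 1 lower, and 2 of 4 PDGF genes were lower. The lower ligand was Wnt2, by which the cells were chosen, and the lower PDGF genes were Pdgfa and the targeted Pdgfrb. Rgs5 was at 28.0 and 76.3 CPM, the 1 of 12 pericyte genes 2-fold higher, with 2 lower, Ndufa4l2 and the targeted Pdgfrb itself.

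**Figure D5:**
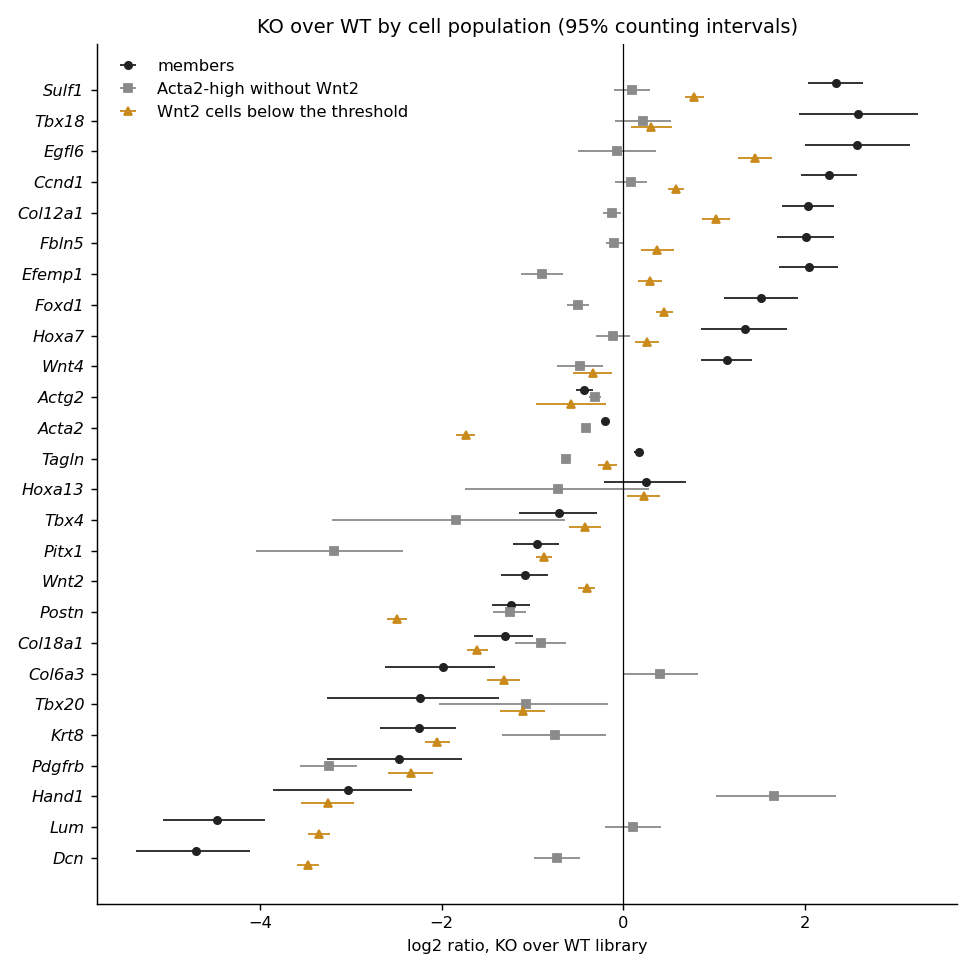
Log2 ratio of KO over WT (horizontal axis) for 26 genes in Wnt2+ Acta2-high cells (members, circles), Wnt2- Acta2-high cells (squares) and Wnt2+ Acta2-low cells (triangles), with 95% counting intervals. Hand1, Lum and Dcn lie far to the left in both Wnt2+ groups, and the ratios of Acta2 and Tagln are bounded by the choice of the cells.

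The 15 genes with the highest ratio of KO over WT were Ddx3y, Eif2s3y, Nefl, Nefm, C130073E24Rik, Gfra1, 1500015A07Rik, Tbx18, Egfl6, Hist3h2ba, Cxcl13, Col2a1, Sulf1, Ccnd1 and Elmod1. Nefl and Nefm, neurofilament genes, owed 92.0% and 80.9% of their KO UMIs to 1 cell, and Cxcl13 and Col2a1 owed 56.7% and 50.7%. Egfl6, a basement membrane protein, was at 9.70 and 57.6 CPM in 28 of 180 and 17 of 31 cells. Ccnd1 (cyclin D1) was at 35.3 and 169 CPM. Egfl6 was at 13.5 and 12.8 CPM in the Wnt2- Acta2-high cells and at 16.7 and 45.7 CPM in the Wnt2+ Acta2-low cells. Ccnd1 was at 72.8 and 77.4 CPM in the former and at 93.8 and 140 CPM in the latter, so both were higher in KO in each Wnt2+ group.

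The 15 with the lowest ratio were Xist, Hbb-bh1, Hba-x, Hist1h2ap, Hbb-y, Tnnc2, Myh3, Gm10076, Dcn, Hba-a1, Hba-a2, Usp50, Tnnc1, Lum and Fbxl22. More than 50% of the WT UMIs of each globin gene here came from 1 cell. With Acta2 and Tagln from 0.1% the ratio turned to 0.70 for Hbb-y, 0.079 for Hba-x, 1.28 for Hba-a1 and 1.49 for Hba-a2. That of Hbb-y also turned, to 1.69, with free RNA subtracted. The histone gene Hist1h2ap, Gm10076 and Usp50, with log2 ratios of -5.82, -4.76 and -4.55, were lower in KO also in the Wnt2- Acta2-high cells, at -4.71, -4.39 and -3.41. The sarcomere genes Tnnc1, Tnnc2 and Myh3 came from few cells, 11, 3 and 4 of the 180 in WT.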

How the data were processed

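Whole AGM suspensions of 2 libraries (WT and KO, E11) were profiled on the 10x Chromium platform. Per the labels and the study's methods, the authors aligned reads to mm10 (GRCm38) and counted UMIs with Cell Ranger 3.1.0. The deposited values are raw UMI counts per gene and barcode, unfiltered, without normalization, and sum to 179743201 in WT and 174597654 in KO. The study removed KO cells with a Pdgfrb UMI. Here they were kept, and leaving them out was an alternative.

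Counts were summed over the cells of each population and library and given as CPM with exact Poisson intervals. Ratios have exact conditional binomial intervals (95%), and a count of 0 was set to 3 counts, over the population, for a bound. Genes needed 50 UMIs. Calls mean a ratio of 2-fold or more. No p-value was computed, since 1 library stood for each genotype and cells are not replicates, and edgeR (4.0.16, R 4.3.3) gave only TMM factors. Named genes were fixed markers, the 15 largest ratios in each direction per comparison, 5 by share of cells and examples from 33 gene lists, at most the most abundant or most different of each. The genes shown by bins of Wnt2 UMIs, the 20 looked up for promoters and the ranking without striated cells were chosen after values were seen. Members and lists were chosen with earlier results of these data known. Python 3.11.15, numpy 2.4.6 and scipy 1.17.1 were used, and the ratio and interval code was checked on simulated data. Doublets were kept, with an alternative that left possible ones out. The files held 31053 genes, and the 35 symbols carried by more than 1 gene were left out of counts of genes. UMIs of Hba-a1 and Hba-a2, near-identical copies, may be split between them. Some genes that the rule names are not reported here.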

Additional observations from a re-analysis of the deposited data

Results flagged for a closer look

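For 6 genes named above or held in a gene list, the ratio of Wnt2+ over Wnt2- Acta2-high cells was 2-fold or more in opposite directions in the 2 libraries. With 1 library each the difference was not tested. Sema3a, an axon guidance ligand, had a log2 ratio of 1.21 in WT and -2.57 in KO, and was at 26.5 CPM in 66 of the 180 WT cells and at 2.66 CPM in 3 of the 31 KO cells. Ccnd1 had -1.04 in WT and 1.13 in KO, with 34.6% of its KO UMIs in 1 cell, and its KO ratio was 0.82 with striated cells left out, under 2-fold. Cxcl13, a chemokine, had -2.12 and 1.64, with a UMI in 9 WT and 7 KO cells. C130073E24Rik had -2.34 and 1.02, from 8 cells in each library, and its KO ratio was 0.53 (-0.05 to 1.08) without striated cells, no longer 2-fold. That ratio turned to -0.53 with 2 or more Wnt2 UMIs required. Nefm had -2.29 and 1.49, and Nefl -2.02 and 2.88, and 1 KO cell held 80.9% and 92.0% of their UMIs. With Acta2 and Tagln from 0.4% the KO ratio of Nefm turned to -1.89.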

How the results depend on the processing

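Every KO value rests on 31 cells, 1 library stood for each genotype, and embryo sex differed between the libraries, so that genotype ratios describe these 2 libraries only. The order of the shares with Wnt2, WT above KO, held under the 10 alternatives that change which cells are counted, 1 of them, leaving out striated cells, chosen after seeing the data, as was leaving out the deepest cell, which gave 215 genes higher and 356 lower in KO. With every cell thinned to 2000 UMIs before the thresholds, the shares were 15.7% in WT and 1.55% in KO, 20 and 19 genes were higher and lower in the Wnt2+ Acta2-high cells, and 24 and 70 higher and lower in KO, from 7 KO cells, and the KO over WT ratio of Wnt2 turned to 0.087 (log2). With 2 or more Wnt2 UMIs required the KO share was 4.73%, and the KO ratio of C130073E24Rik was -0.53. Genes from 20 UMIs gave 237 higher in the Wnt2+ cells, and 481 higher and 634 lower in KO, and genes from 200 UMIs gave 50, 99, 51 and 129 in the same order as for thinning. Leaving out striated cells gave 123 lower, and 18 of the 30 named lower genes stayed past 2-fold. The mean of per-cell CPM gave 397 higher in KO, and leaving out KO cells with a Pdgfrb UMI (20 left) gave 623 lower in KO. With Acta2 and Tagln from 0.4% the KO ratio of Nefm was -1.89. TMM factors gave 120, 307, 182 and 414 genes. Of the 15 genes highest in the Wnt2+ Acta2-high cells all stayed past 2-fold in both libraries except under an mt- limit of 5% (13 of 15) and thinning (11 of 15). Of the 30 lower ones 5 stayed with thinning and 25 with the mt- limit. Of the 15 lower in KO, 4 stayed with thinning, 10 with Acta2 and Tagln from 0.1%, and 12 with 2 Wnt2 UMIs, with free RNA subtracted or without striated cells. Of the 15 higher in KO 13 or more stayed under each alternative. The globin genes lower in KO turned with Acta2 and Tagln from 0.1%, to 0.70 for Hbb-y, 0.079 for Hba-x, 1.28 for Hba-a1 and 1.49 for Hba-a2, and Hbb-y to 1.69 with free RNA subtracted. Among 2829 recomputed ratios of 50 or more UMIs these and the 3 above, 8 in all, turned from a ratio of 2-fold or more. Smaller ratios and those under 50 UMIs changed sign in some settings as well. Beyond the fewer cells or genes that an alternative leaves, the cause of these changes was not tested. No paired analysis was possible because the labels give no replicate numbers and each genotype had 1 library.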
